A study of Homo sapiens with 4 samples.

Results

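ATP-binding cassette (ABC) transporter genes were examined in RNA from a MYCN-amplified human neuroblastoma cell line, SK-N-BE(2), after knockdown of METTL14. The set holds every protein-coding gene whose symbol begins with ABCA, ABCB, ABCC, ABCD, ABCE, ABCF or ABCG and a number, which gave 46 of the 60671 genes in the count table. Of these, 29 were expressed highly enough to test, among 16309 genes tested. The comparison is between cells with a scramble short hairpin RNA (shNC, 2 libraries) and cells with a hairpin against METTL14 (shMETTL14, 2 libraries), a gene for a subunit of the enzyme that writes N6-methyladenosine (m6A) on RNA. The study's methods describe stable hairpin lines made with a pLKO.1 lentivirus and selected with puromycin. RNA sequencing is not listed there among the uses of these lines. Puromycin is an antibiotic that ABCB1 is known to export, and any part of the selection in the ABCB1 values was not tested. All 4 libraries come from 1 cell line, the labels do not say which METTL14 hairpin was sequenced, and they do not say that the libraries of a group came from separate cultures. P-values then measure only the spread between these libraries, which may be technical.

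ABC proteins use the energy of ATP, bound by a pair of nucleotide-binding domains, to move substrates across membranes. Members of the ABCB, ABCC and ABCG subfamilies export drugs, and ABCB1 (P-glycoprotein) is the classical multidrug pump of tumour cells. ABCA and several ABCG proteins move lipids and sterols, ABCD proteins serve peroxisomes and lysosomes, and ABCE1 and the ABCF proteins lack membrane domains and act on ribosomes and translation. In neuroblastoma, high expression of ABCC1 has been linked to poor outcome.

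The 3 members with the largest called increases were ABCB1, ABCF2 and ABCF1, and the 250 bases before their start sites are shown because these genes moved in the same direction (RefSeq, GRCh38.p14, strand of the gene, 5′ to 3′). ABCB1 has a pair of annotated start sites, and a count per gene cannot tell which one was used. Capitals mark CCAAT boxes (CCAAT or ATTGG) and GC boxes (GGGCGG or CCGCCC). The windows are chr7:87600885-87601134 on the minus strand for the downstream start of ABCB1, chr7:87713296-87713545 on the minus strand for its upstream start, chr7:151227206-151227455 on the minus strand for ABCF2, and chr6:30571192-30571441 on the plus strand for ABCF1.
ABCB1 downstream start: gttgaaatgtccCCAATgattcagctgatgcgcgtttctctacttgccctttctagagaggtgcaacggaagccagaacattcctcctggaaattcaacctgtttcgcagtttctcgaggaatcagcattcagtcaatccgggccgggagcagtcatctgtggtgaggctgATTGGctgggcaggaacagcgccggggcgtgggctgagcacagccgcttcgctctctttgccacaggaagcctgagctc
ABCB1 upstream start: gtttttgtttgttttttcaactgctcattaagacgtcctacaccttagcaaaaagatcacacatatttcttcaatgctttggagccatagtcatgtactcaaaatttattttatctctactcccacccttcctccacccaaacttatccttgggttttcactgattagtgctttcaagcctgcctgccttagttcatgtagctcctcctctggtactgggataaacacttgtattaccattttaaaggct
ABCF2: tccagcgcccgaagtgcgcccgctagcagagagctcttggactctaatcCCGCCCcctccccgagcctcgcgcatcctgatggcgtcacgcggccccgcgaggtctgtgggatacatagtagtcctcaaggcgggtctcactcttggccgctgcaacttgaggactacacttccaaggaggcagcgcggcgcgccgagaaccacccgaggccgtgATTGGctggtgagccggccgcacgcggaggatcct
ABCF1: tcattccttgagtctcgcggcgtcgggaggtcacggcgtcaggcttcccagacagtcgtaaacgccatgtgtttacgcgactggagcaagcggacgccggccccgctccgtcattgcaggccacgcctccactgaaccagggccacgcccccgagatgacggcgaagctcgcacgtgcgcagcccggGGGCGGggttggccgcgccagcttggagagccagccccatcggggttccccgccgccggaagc

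The downstream ABCB1 window holds 2 CCAAT boxes and no GC box, and the upstream ABCB1 window holds neither. The ABCF2 window holds 1 CCAAT box and 1 GC box, and the ABCF1 window 1 GC box. The longest run of letters that the downstream ABCB1 and the ABCF2 windows share is TGATTGGCTGG, which spans a CCAAT box on the other strand and begins 81 and 37 bases before the start. This run was looked for after the results were seen, and it stands in 0.245% of 35116 promoter windows of this length, on either strand. CCAAT boxes were present in 32.0% of all windows and in 8 of the 35 windows of tested members (22.9%). GC boxes were present in 42.6% of all windows and in 21 of those 35 (60.0%). These sets are unlike: all windows include those of genes not tested here, and the 35 belong to 24 tested members. By call, a CCAAT box was found in 2 of 7 higher, 2 of 5 lower and 4 of 12 uncalled members with an entry, so that the motif did not separate the directions.

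METTL14 itself was reduced in both libraries labelled shMETTL14. The shNC libraries held 753 and 754 METTL14 counts and the others 303 and 321, which left 41.7% of the control level (-1.26 on the log2 scale, SE 0.0832, edgeR adjusted p 3.64e-11). Depth was even, with 18925786 to 19886214 counts in genes per library. Over all genes tested, 52.5% were called at an edgeR adjusted p under 0.05, 27.2% as increases and 25.3% as decreases after knockdown. Over the 12809 protein-coding genes tested, 58.5% were called, 33.0% higher and 25.6% lower. Markers of the noradrenergic neuroblast type were all present, and of 10 tested 2 were called higher and 7 lower, which is 90.0% called and 70.0% lower. Markers of blood and vessel cells were low: summed over 8 blood markers the level was 2.11 and 2.61 CPM (counts scaled by TMM to a common library total) in shNC against 2.25 and 1.92 CPM in shMETTL14, and over 6 endothelial markers 2.51 and 1.93 against 0.919 and 1.51 CPM. Most of the blood sum was PTPRC, which had 34 and 40 against 29 and 30 counts and was not called (-0.32, adjusted p 0.41). CD14 had at most 12 counts. HBA1, HBB, CD68 and CLDN5 had at most 2 counts in any library, whereas VWF was called lower, with 44 and 28 against 10 and 18 counts. The 6 epithelial markers summed to 7.73 and 8.30 against 5.36 and 4.52 CPM, with EPCAM called lower. Fibroblast-type markers were present, with 4552 to 4896 counts of LUM, and summed to 457 and 454 CPM in shNC and to 416 and 426 CPM in shMETTL14, and LUM itself was not called (0.06, adjusted p 0.264). Of 7 tested fibroblast-type markers, 4 were called lower and 1 higher. PDGFRA fell to 22.9% and COL3A1 to 58.0% of the control level, and COL1A2 rose from 2 and 6 to 11 and 18 counts. COL1A2 reached the expression limit of 0.51 CPM only in the shMETTL14 libraries and so entered the test through them. Markers are named here after their values were seen. The part of these shifts in the ABC values was not tested, and in bulk RNA fewer cells of a type and less RNA per cell cannot be told apart.

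Knockdown of METTL14 was accompanied by a rise of ABCB1 that was larger than the changes of the other members. Of 29 tested members, 15 were called, 9 higher and 6 lower after knockdown, where 52.5% of all genes and 58.5% of coding genes were called. The share of members called (51.7%) was near the former and below the latter, with no test of that difference. The median log2 fold change of tested members was 0.10, against -0.000953 over all genes and 0.04 over coding genes, and the median absolute change was 0.24 against 0.30 over all genes and 0.27 over coding genes. Of the 15 called changes, 12 were smaller than 1.5-fold, as were 64.1% of the called changes over all genes and 69.6% over coding genes. ABCB1 alone was called with a change of at least 2-fold, where 2.8% of all genes were called that much higher and 5.99% that much lower. Without one library the count of called members ran from 10 to 13, and DESeq2 called 9, 7 higher and 2 lower. Calls over all genes fell as well, from 8561 to between 7287 and 7458 without one library. Over all genes DESeq2 called 5538 of 16972, 3132 higher and 2406 lower. Upper quartile scaling turned the split over all genes from 4438 higher and 4123 lower to 3550 higher and 4961 lower, and that of the members from 9 and 6 to 8 and 7.

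**Figure D1:**
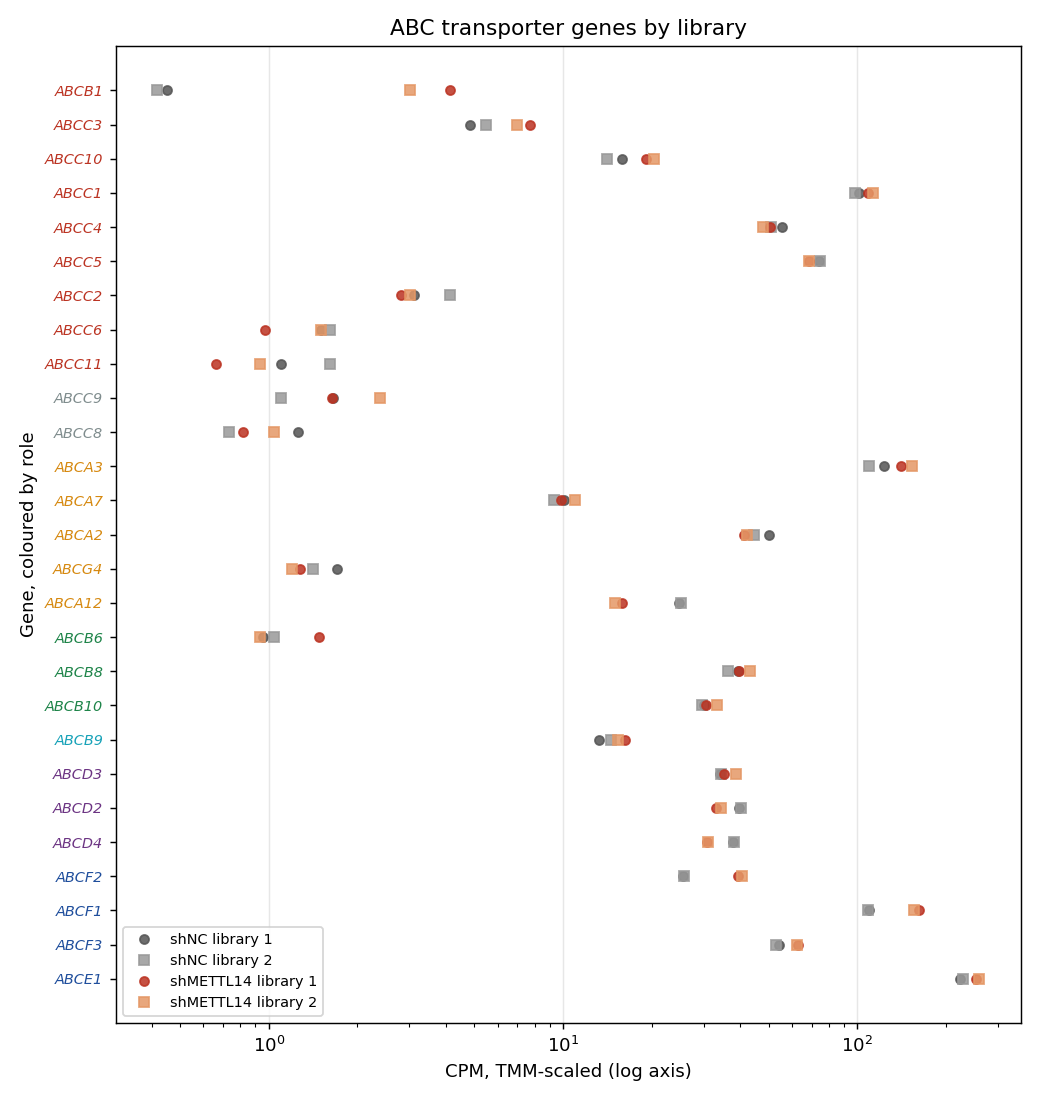
Level of 27 tested ABC transporter genes in each library, in TMM-scaled CPM on a log axis, with gene names coloured by role. ABCB1 had 0.452 and 0.418 CPM in the shNC libraries and 4.14 and 3.01 CPM in the shMETTL14 libraries, and for most other genes the 4 points lie close together.

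**Figure D2:**
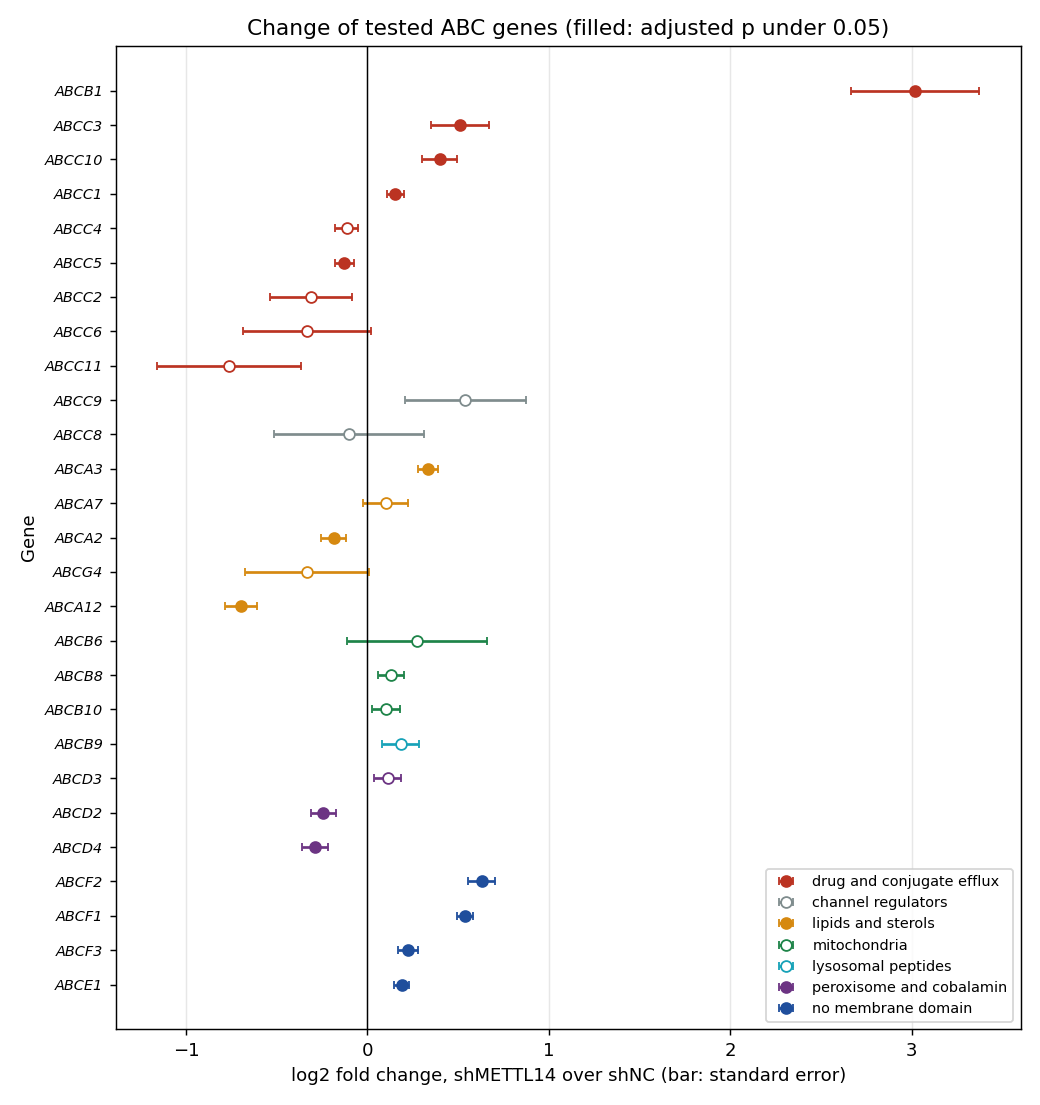
Log2 fold change of 27 tested ABC genes, shMETTL14 over shNC, with the standard error as a bar and filled points for an adjusted p under 0.05. ABCB1 lies at 3.02, the other 26 genes between -0.76 and 0.63, and all 4 genes without membrane domains lie to the right of 0.

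Drug and conjugate exporters were considered first. Of 12 listed members, 9 could be tested, 5 were called, 4 higher and 1 lower, and the median log2 fold change of the 9 was -0.11. The share called, 55.6%, was near that of all genes (52.5%) and coding genes (58.5%). ABCB1 (ENSG00000085563, minus strand, chr7:87503633-87713323) had 9 and 8 counts in the shNC libraries and 81 and 58 in the shMETTL14 libraries. The groups did not overlap, as in all 15 called members and in 8 uncalled tested members, so this trait does not mark a call. Its share over all genes tested was not counted, so these counts are not a result about the family. With 2 against 2 libraries, an exact permutation test cannot go below p = 0.333 even where groups do not overlap. For ABCB1, library 1 of shMETTL14 was the higher of the pair. In normalised terms the level went from 0.435 ± 0.0239 to 3.58 ± 0.794 CPM (SD, n = 2 each), which is 3.02 on the log2 scale (SE 0.353, edgeR adjusted p 2.53e-07), or 8.12-fold with a range of 1 SE from 6.36 to 10.4. Of the 16309 genes tested, 25 had a higher log2 fold change. The value was 2.78 without shMETTL14 library 1 and 3.24 without shMETTL14 library 2, and ABCB1 was called in each of the 10 alternatives that could test it. ABCB1 reached the expression limit of 0.51 CPM only in the shMETTL14 libraries and so entered the test through them, and a filter of 10 counts in every library leaves it out.

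The other exporters that rose did so from a higher level and by less. ABCC3 (MRP3, an exporter of glucuronides and bile salts) had 96 and 105 counts in shNC and 151 and 134 in shMETTL14 libraries. Its log2 fold change was 0.51 (SE 0.159, adjusted p 0.0101), and the groups did not overlap. The ABCC3 call was lost without shNC library 1 (0.42, adjusted p 0.0733), without shMETTL14 library 1 (0.44, adjusted p 0.0682) and with DESeq2 (0.52, adjusted p 0.132). ABCC10 (MRP7, which exports taxanes) rose from 317 and 270 to 376 and 392 counts, or 0.40 on the log2 scale (SE 0.0981, adjusted p 0.00172). Its call held in all 11 alternatives.

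ABCC1 (MRP1), the most abundant exporter per length, exports glutathione conjugates and anthracyclines. It had 2021 and 1876 counts in shNC and 2125 and 2180 in shMETTL14 libraries, or 0.15 on the log2 scale (SE 0.0465, adjusted p 0.00839). The groups did not overlap after scaling, but the ABCC1 call was lost with upper quartile scaling (0.09, adjusted p 0.127), with library size alone (0.11, adjusted p 0.0557), without shMETTL14 library 2 (0.13, adjusted p 0.0932) and with DESeq2 (0.16, adjusted p 0.0746).

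ABCC5 (MRP5, an exporter of cyclic nucleotides) was called lower, from 1481 and 1433 to 1339 and 1313 counts. The log2 fold change was -0.13 (SE 0.0506, adjusted p 0.0405), and this call held in 5 of 11 alternatives. It was lost with DESeq2, without a filter on low counts and without any one library: -0.14 without shNC library 1, -0.12 without shNC library 2, -0.12 without shMETTL14 library 1 and -0.12 without shMETTL14 library 2. ABCC4 (MRP4), with 1101 and 975 against 985 and 919 counts, was not called at -0.11 (adjusted p 0.132), but was called lower with upper quartile scaling (-0.18, adjusted p 0.0191) and library size alone (-0.16, adjusted p 0.0385).

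Weakly expressed exporters could not be separated from replicate spread. ABCC2 (MRP2) had 62 and 79 counts against 55 and 58, or -0.31 on the log2 scale (SE 0.228, adjusted p 0.265). ABCC11 had 22 and 31 against 13 and 18 counts, with -0.76 (SE 0.398, adjusted p 0.114), and it shares 4.04% of its exon length with LONP2, a far more abundant gene on the opposite strand. ABCC6 had 30 and 31 against 19 and 29 counts, with -0.33 (SE 0.352, adjusted p 0.449), and its counts are uncertain because the near-identical copies ABCC6P1 and ABCC6P2 may share its reads. ABCG2 (BCRP), a further classical multidrug pump, had 0 and 2 counts in shNC and 0 in each shMETTL14 library. ABCB5 had no count in any library and ABCC12 at most 3, so that changes of these 3 genes were not detectable at this depth, since a count of 0 allows up to 3 counts. Without shNC library 1, shMETTL14 library 1 or shMETTL14 library 2, 3 rather than 5 exporters were called, and with DESeq2 2 were called. In the same order, 7458, 7327 and 7287 rather than 8561 genes were called over the whole table, and 5538 with DESeq2.

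Although ABCB1 had the largest fold change, it stayed a minor member in level. Per length, as CPM per kb of exon, ABCC1 was 172 and 180 times ABCB1 in the shNC libraries and 20.1 and 28.8 times ABCB1 in the shMETTL14 libraries. Summed over the 12 exporters, the level was 29.6 and 28.7 in shNC and 30.6 and 30.9 in shMETTL14 libraries, in CPM per kb. ABCE1 was the highest of all members at 36.0 ± 0.643 CPM per kb (SD, n = 2) in shNC, followed by ABCF1 at 24.1 ± 0.101, ABCA3 at 14.9 ± 1.17, ABCC1 at 13.2 ± 0.32 and ABCF3 at 10.3 ± 0.16. ABCB1 ranked 23 of 46 by mean level over all libraries.

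**Figure D3:**
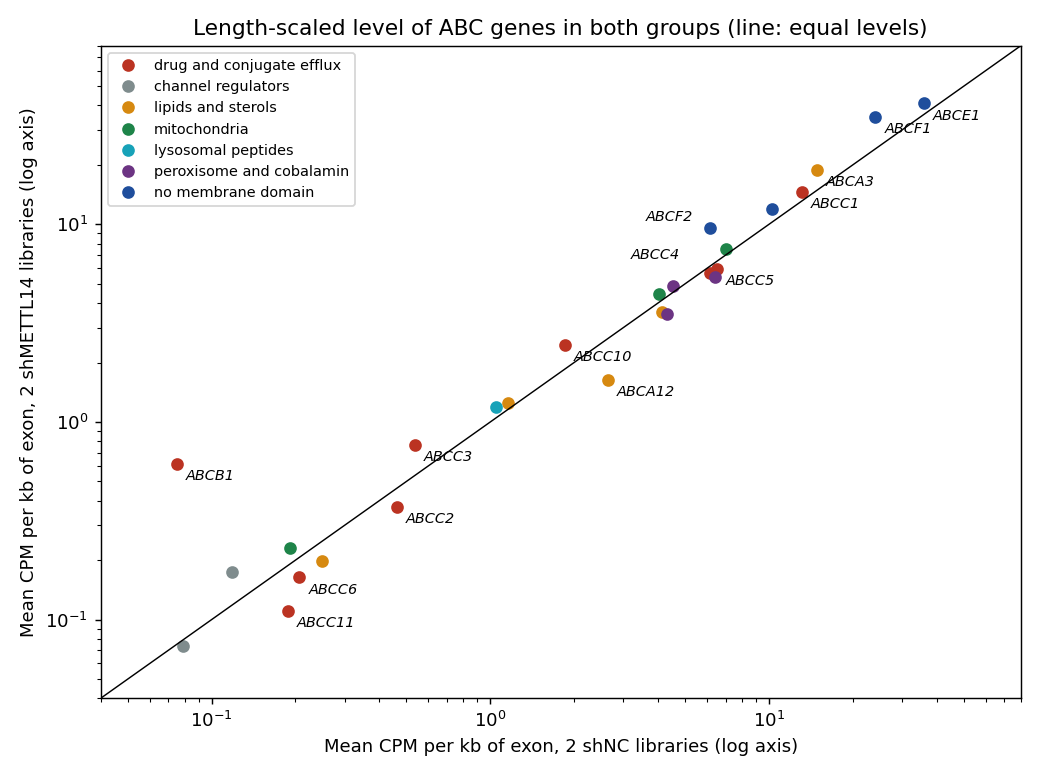
Mean level of 27 tested ABC genes in shNC (horizontal) and shMETTL14 (vertical) libraries, in CPM per kb of exon on log axes, where the line marks equal levels. ABCB1 lies far above the line at a low level, and ABCC1 lies close to it at a high level.

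The coding genes within 500 kb of ABCB1 were read as well, a window chosen after its value was seen. Of 10 such genes, 9 were tested, 4 were called higher, 2 lower and 3 were not called, where 27.2% of all genes were called higher and 25.3% lower. ABCB4, the phosphatidylcholine transporter next to ABCB1, had 2 counts in each shNC library and 2 and 0 in the shMETTL14 libraries. RUNDC3B, which lies across the ABCB1 locus on the other strand without sharing exons, had 7 and 9 against 12 and 14 counts and was not called (0.70, adjusted p 0.265). Like ABCB1, RUNDC3B reached the expression limit of 0.51 CPM only in the shMETTL14 libraries and so entered the test through them. SLC25A40 was not called (0.16, adjusted p 0.0564), DBF4 rose by 0.42 and ADAM22 fell by 0.33 on the log2 scale. ELAPOR2 rose by 0.60, SRI, the gene for sorcin, by 0.44 and CROT by 0.30, and DMTF1 fell by 0.42. The 9 log2 fold changes ran from -0.42 to 0.70, against 3.02 for ABCB1.

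**Figure D4:**
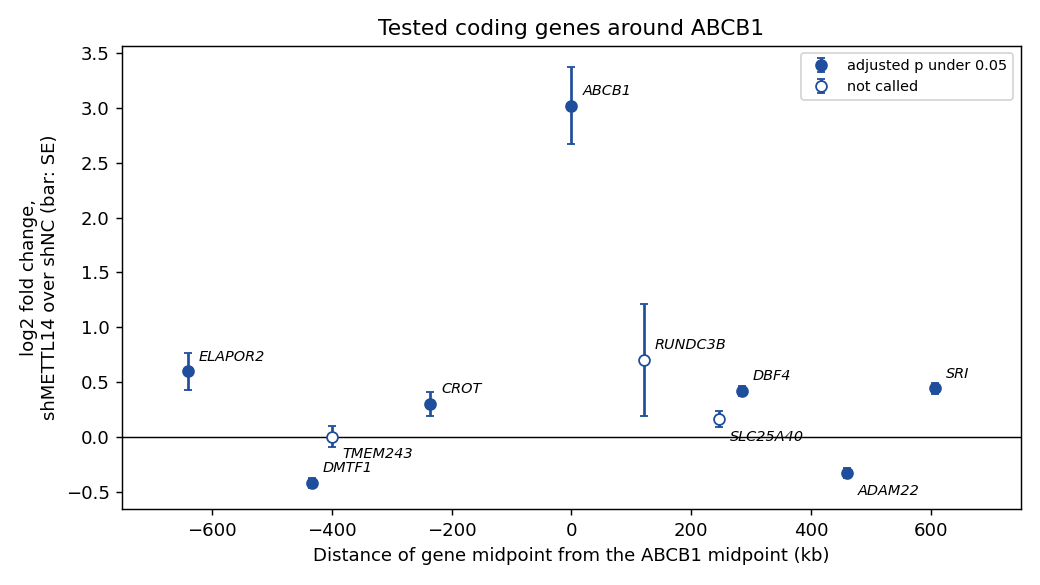
Log2 fold change of ABCB1 and the 9 tested coding genes within 500 kb of it, against the distance between gene midpoints in kb, with the standard error as a bar. ABCB1 lies at 3.02 and the other genes between -0.42 and 0.70.

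All 4 members without membrane domains were called higher, where 27.2% of all genes and 33.0% of coding genes were. This group of 4 was chosen with earlier results known. ABCF1, which binds initiation factor eIF2, had 2181 and 2083 counts in shNC and 3170 and 2986 in shMETTL14 libraries, or 0.54 on the log2 scale (SE 0.0441, adjusted p 1.16e-09). ABCF2 had 511 and 495 against 767 and 779 counts, with 0.63 (SE 0.0744, adjusted p 3.08e-07). In both genes the groups did not overlap, which was also so for 8 uncalled tested members of the family. ABCF2 shares 45.8% of its exon length with the readthrough gene ABCF2-H2BK1, itself a member, which was at 0 counts in all libraries, so the counts of both are uncertain. ABCF3 had 1079 and 1014 against 1229 and 1201 counts (0.22, SE 0.0558, adjusted p 0.00181). ABCE1, which recycles ribosomes, had 4434 and 4369 against 4970 and 4998 counts (0.19, SE 0.04, adjusted p 4.21e-04).

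These 4 calls held in all 11 alternatives. Together the 4 genes made up 76.2 and 76.8 in shNC and 97.7 and 97.4 in shMETTL14 libraries, in CPM per kb. Of the factors that work with ABCE1 in ribosome rescue, PELO rose by 0.27 (adjusted p 0.00632), from 527 and 556 to 646 and 651 counts, and HBS1L fell by 0.78, from 1855 and 1584 to 1001 and 984 counts.

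Lipid and sterol transporters were called in both directions, as were genes over the whole table. Of 17 members, 5 were tested, 1 was called higher and 2 lower. The share called, 60%, was near that of all genes (52.5%) and coding genes (58.5%). ABCA12, a glucosylceramide transporter of skin, showed the largest called decrease of the family. It had 495 and 480 counts in shNC and 310 and 288 in shMETTL14 libraries, which left 61.7% of the control level (log2 fold change -0.70, SE 0.0897, adjusted p 1.05e-06), and its groups did not overlap. ABCA3, a phospholipid transporter known from lung surfactant, rose from 2448 and 2104 to 2753 and 2944 counts (0.33, SE 0.0528, adjusted p 1.48e-05). Both calls held in all 11 alternatives.

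ABCA2, which acts in endosomes and lysosomes of the nervous system, was called lower at -0.19 (adjusted p 0.0277), with 1001 and 855 against 809 and 811 counts. Its shNC libraries differed, and without shNC library 1 the value was -0.10 (adjusted p 0.304). The ABCA2 call was also lost without shMETTL14 library 1 (-0.17), without shMETTL14 library 2 (-0.19), without a filter on low counts (-0.18) and with DESeq2 (-0.18). ABCA7 (0.10, adjusted p 0.513) and ABCG4 (-0.33, adjusted p 0.436) were not called. The cholesterol exporters ABCA1 and ABCG1 were nearly silent, with 5 and 1 against 3 and 0 counts and 2 and 3 against 3 and 0 counts.

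Of the transporters of mitochondria, ABCB6, ABCB8 and ABCB10 were not called, with log2 fold changes of 0.28, 0.13 and 0.10 and adjusted p-values of 0.577, 0.135 and 0.276. ABCB6 was weak, with 19 and 20 against 29 and 18 counts, and shares 54.7% of its exon length with another annotated coding gene.

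ABCD proteins serve lysosomes and peroxisomes. ABCD4, which moves cobalamin (vitamin B12) out of lysosomes, had 751 and 730 counts in shNC and 604 and 600 in shMETTL14 libraries (-0.29, SE 0.0724, adjusted p 0.00195). LMBRD1, its partner in cobalamin export, fell by 0.38 (adjusted p 9.51e-04), from 457 and 454 to 358 and 336 counts. ABCD2, a peroxisomal importer of fatty acids, had 790 and 770 against 650 and 660 counts (-0.24, SE 0.0704, adjusted p 0.00629). The ABCD2 call was lost without shMETTL14 library 1 (-0.22, adjusted p 0.0591) and with DESeq2 (-0.24, adjusted p 0.0961). ABCD3, a further peroxisomal transporter, had 678 and 660 against 690 and 746 counts and was not called (0.11, adjusted p 0.217). PEX19, the chaperone of peroxisomal membrane proteins, was not called at 0.06 (adjusted p 0.485).

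The sulfonylurea receptors ABCC8 and ABCC9, which regulate potassium channels, were weak and not called. ABCC8 had 25 and 14 against 16 and 20 counts (-0.10, SE 0.414, adjusted p 0.855), and ABCC9 had 33 and 21 against 32 and 46 counts (0.54, SE 0.331, adjusted p 0.179). KCNJ8, the channel subunit that pairs with ABCC9, rose by 0.48 (SE 0.0657, adjusted p 2.35e-06), from 720 and 749 to 1036 and 1001 counts, whereas KCNJ11, the partner of ABCC8, had at most 12 counts and was not tested. ABCB9, a lysosomal peptide transporter, was not called (0.18, adjusted p 0.143). It overlaps OGFOD2 and ARL6IP4 on the opposite strand. ABC proteins that carry other symbols were read beside the family: the peptide transporter subunit TAP2 rose by 0.51 (adjusted p 0.000666), TAP1 was not called (0.24, adjusted p 0.519) and CFTR had at most 1 count.

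Of the 46 members, 17 were not tested, with at most 7 counts in any library. Of these, 13 had 3 counts or fewer in every library, and ABCB5 and ABCF2-H2BK1 had none. Besides those described above, they comprised ABCA4, ABCA5, ABCA6, ABCA8, ABCA9, ABCA10 and ABCA13, the bile salt exporter ABCB11, and the sterol transporters ABCG5 and ABCG8.

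Genes around the transporters were counted from lists. Of 19 regulators of ABC transcription, 16 were tested and 15 called, 6 higher and 9 lower, with a median log2 fold change of -0.25. That is 93.8% called, against 52.5% of all genes and 58.5% of coding genes. The 3 largest called changes were in the aryl hydrocarbon receptor AHR, which had 4 and 11 counts in shNC and 73 and 78 in shMETTL14 libraries (3.32, SE 0.368, adjusted p 1.2e-07), in PPARG, which rose from 31 and 38 to 121 and 142 counts (1.94, SE 0.213), and in PPARA, which fell from 386 and 365 to 129 and 107 counts (-1.66, SE 0.119). In shNC, AHR had 0.201 and 0.574 CPM, not both at the expression limit of 0.51 CPM. Like ABCB1, AHR therefore entered the test through the shMETTL14 libraries. NR1I2 (PXR), the xenobiotic receptor that induces ABCB1 in liver, had no count and NR1I3 (CAR) at most 1, and both are named here after their values were seen. Of 24 partner genes, 22 were tested, 6 called higher and 6 lower, with a median of 0.03, and the share called (54.5%) was near both backgrounds. Their largest called changes were in the lipid acceptor APOE (-1.69), the membrane linker MSN (-0.86) and the iron-sulfur factor GLRX5 (0.83). Of 23 genes for glutathione conjugation and other efflux, 20 were tested, 7 called higher and 4 lower, with a median of 0.09 and a share called (55.0%) likewise near them. MGST1 (-1.59), the vault protein gene MVP (-0.98) and the organic cation exporter SLC47A1 (0.67) changed most among those called. MVP was weakly expressed, with 46 and 26 against 13 and 23 counts (SE 0.387, adjusted p 0.0382).

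The consensus letters of m6A sites, GGACT in DNA (GGACU in RNA), were counted in the longest coding transcript of each gene (GENCODE 29). Tested members had a median of 0.823 copies per kb over 29 genes, against 0.926 over 12788 coding genes tested. The median was 1.05 per kb for the 9 members called higher, 1.17 for the 6 called lower and 0.751 for the 14 not called, with ranges that overlapped. Over all coding genes the same medians were 0.958, 0.884 and 0.932, so that the order of higher and lower was the opposite. ABCB1 held 5 copies in 4778 bases (1.05 per kb), ABCC1 13 copies and ABCE1 none. The letters are a description of the sequence, and no m6A was measured in these libraries.

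**Figure D5:**
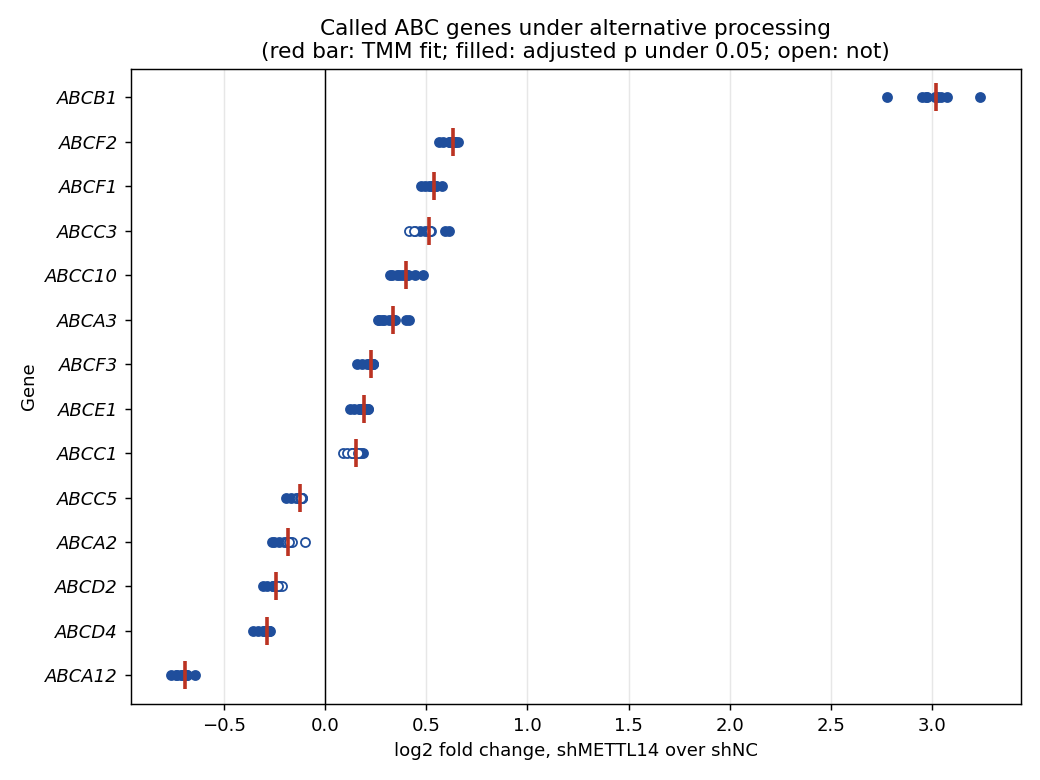
Log2 fold change of 14 called members under 11 alternative analyses (points, filled where the adjusted p was under 0.05), with the value of the TMM fit as a red bar. ABCB1 has 10 points, as the filter of 10 counts in every library leaves it out. The 9 genes with filled points throughout include ABCB1, ABCF1, ABCF2 and ABCA12, and no called gene crossed 0.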

How the data were processed

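SK-N-BE(2) RNA was sequenced in 2 groups of 2 libraries. The deposited file is a table of raw counts for each Ensembl gene ID, which the authors made in the layout of htseq-count. The submitters' processing notes name HISAT2 2.1.0, StringTie 1.3.6, HTSeq 0.13.5, edgeR and the build GRCh38, without an order. The annotation release and the strand setting are not given in the sources used here, so reads of overlapping genes may have been lost or misassigned, and 4 members share over 10% of their exon length with another coding gene. The 5 lines that name no gene held 19.1% to 19.9% of counts and were left out.

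Symbols came from a gene name table that held 60401 of 60671 IDs, and gene types, coordinates and exon lengths from GENCODE 29 (GRCh38). Promoters came from RefSeq, with an entry for 36 of 46 members. Differential expression was tested with edgeR 4.0.16 (R 4.3.3): TMM scaling, filterByExpr (min.count 10, min.total.count 15), the quasi-likelihood F-test, and Benjamini-Hochberg adjustment over all 16309 genes tested. All adjusted p-values are from this test unless DESeq2 1.42.0 is named. Each standard error is the absolute log2 fold change over the square root of F. An exact permutation test of 2 against 2 libraries cannot go below p = 0.333. The procedure was tested on simulated counts. In these, far fewer genes changed than were called here, so the simulation does not give error rates for these data. Same-numbered libraries did not deviate together (see the closing section). Alternatives were RLE, upper quartile and library size scaling, DESeq2, other filters, a replicate block and leaving out each library. Intervals and floors (3 counts) cover counting error and the spread of these libraries only.

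The members and lists were chosen with earlier results of these data known. Values of 2 tested members are not reported here, though counts over the family include them. The other members could be named throughout, with full values for called exporters and for called members with an absolute log2 fold change of at least 0.5. Of the other lists, the 3 largest called changes and direct partners were named.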

Additional observations from a re-analysis of the deposited data

How the results depend on the processing

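ABC transporter calls numbered 15 and became 9 with DESeq2 and 1 with at least 2-fold change, and calls of drug exporters numbered 5 and became 2 and 1. Over all genes, 8561 calls became 5538 with DESeq2 and 1433 with at least 2-fold change. The last follows from the limit itself, and for DESeq2 the cause was not tested. Without one library, 10 to 13 members, 3 to 4 exporters and 7287 to 7458 genes were called. METTL14 was called lower in each alternative. Of the 15 called members, 9 kept direction and call under all alternatives that could test them, and 6 lost the call in some. The uncalled ABCB6 and ABCC8 changed sign. Leaving out one library gave -0.090 to 0.57 for ABCB6 and -0.43 to 0.34 for ABCC8 (0.064 without shMETTL14 library 1). The cause was not tested. Against TMM, upper quartile scaling shifted log2 fold changes by a median of -0.0676.

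Same-numbered libraries are not stated to share a batch, and across 16309 genes their deviations correlated with a Pearson r of 0.0127. That value cannot show whether they shared a step of preparation. A fit with a replicate block called the same 15 members, 5 exporters and 8926 genes, with ABCB1 at 3.02. The filter of 10 counts in every library left ABCB1 untested. At this depth 17 members could not be assessed.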

Other observations

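ABC pseudogenes were outside the comparisons. ABCA11P had 22 and 15 counts in shNC and 17 and 14 in shMETTL14 libraries. ABCC6P2 had 9 and 11 against 12 and 19 counts, and ABCC6P1 had 5 and 1 against 3 and 5. The processed copies ABCB10P1, ABCB10P3 and ABCB10P4 had at most 1 count in any library.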
